A study of Mus musculus with 24 samples.

Results

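The 57 genes described here are the chemokines and chemokine receptors of the mouse, taken from the 56895 named entries of the deposited tables by their symbols: Ccl, Cxcl, Cx3cl or Xcl for ligands and Ccr, Cxcr, Cx3cr, Xcr or Ackr for receptors, each followed by a number and at most 1 letter. Cxcl13, Cxcr5, Ccl19 and Ccl21a were left out of the set. The rule used names only, and no measured value, though the set was chosen with earlier results of these data known. Of the 57 genes, 36 encode ligands and 21 receptors.

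They were measured by RNA-seq of polyadenylated transcripts in retroperitoneal white adipose tissue of 24 C57BL/6J mice, 3 in each of 8 groups. Mothers ate AIN-93G containing vitamin D3 at 1.0 IU/g (CTRL) or at 0.0 IU/g (VDD) for 8 weeks before mating and through gestation, and all of them ate the control AIN-93G diet between birth and weaning. At 6 weeks of age their sons and daughters went for 8 weeks onto either the low-fat diet AIN-93M (LF) or the DIO diet with 45% of energy from fat (HF). The 8 groups are thus CTRL LF, CTRL HF, VDD LF and VDD HF in each sex, where VDD names the mother's diet. Each library is the RNA of whole tissue from 1 mouse, and since no source names the litters, the p-values measure the spread between mice that may share a mother. In whole tissue, fewer cells of a type and less RNA per cell cannot be told apart.

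Chemokines are small secreted proteins that steer leukocytes along gradients through receptors coupled to inhibitory G proteins. Their family names follow the spacing of the first cysteines, and several ligands share a receptor: Ccl2, Ccl7, Ccl8 and Ccl12 act on Ccr2 of monocytes, Ccl3, Ccl4 and Ccl5 on Ccr1, Ccl11 and Ccl24 on Ccr3 of eosinophils, Cxcl9, Cxcl10 and Cxcl11 on Cxcr3 of activated T and NK cells, and Cxcl12 on Cxcr4. The atypical receptors Ackr1 to Ackr4 bind chemokines without G protein signalling and remove or carry them. In obese fat, Ccl2 and Ccr2 are known for drawing monocytes that become macrophages.

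The libraries held 13346779 to 18484346 reads on genes, with a median of 15933506. Values below are reads divided by a size factor for each library, called normalized reads. VDD HF female 2081 stood apart for T lymphocyte and NK cell markers. It had a summed 1176 normalized reads of 6 T lymphocyte markers against 60.0 to 393 in the other 23 libraries, and 658 of 4 NK cell markers against at most 171. CTRL LF male 2296 stood apart for 6 B lymphocyte markers, with 1405 against 111 to 641 in the other 23 libraries. VDD LF male 2310 (842846 summed normalized reads of 7 skeletal muscle markers), VDD HF males 2307 and 2298 (300200 and 195830) and VDD LF female 2303 (126280, with 5152 of 5 kidney markers against at most 17.3 elsewhere) carried the most RNA of other tissues. The 5 adipocyte markers summed to 275995 or more in every library. Markers that define eosinophils (Siglecf, Prg2 and Epx) summed to at most 19.3 normalized reads in any library. The names of 6 libraries hold the word renal, which no source explains.

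Compared per length, as normalized reads per kb of exon averaged over the 24 libraries, the ligand genes were the most abundant. Ccl6, a myeloid chemokine gene of rodents, had 1219, Ccl11 (eotaxin) 858, Cxcl12 420, Ccl9 406, Cxcl9 336 and Ccl8 323. The receptor genes with the highest level per kb were the Cxcl12 scavenger receptor Ackr3 with 195 and the monocyte receptor Ccr2 with 104. Cxcr4 had 58.1, and the dendritic cell receptor Xcr1, with 3.34, was the lowest of those tested. Of the 57 genes, 35 reached 10 normalized reads in 3 or more libraries and were tested over all 24, while 22 did not, and 5 of these (Ccl20, Ccl21b, Ccl21c, Ccl27b and Cxcl15) had no read in any library. Ccl21b, Ccl21c and Ccl27b are near-identical copies of other genes, and reads without a unique position had been discarded before counting, so 0 reads says little about them. The same step makes the values of Ccl27a and Ccr2 uncertain.

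**Figure D1:**
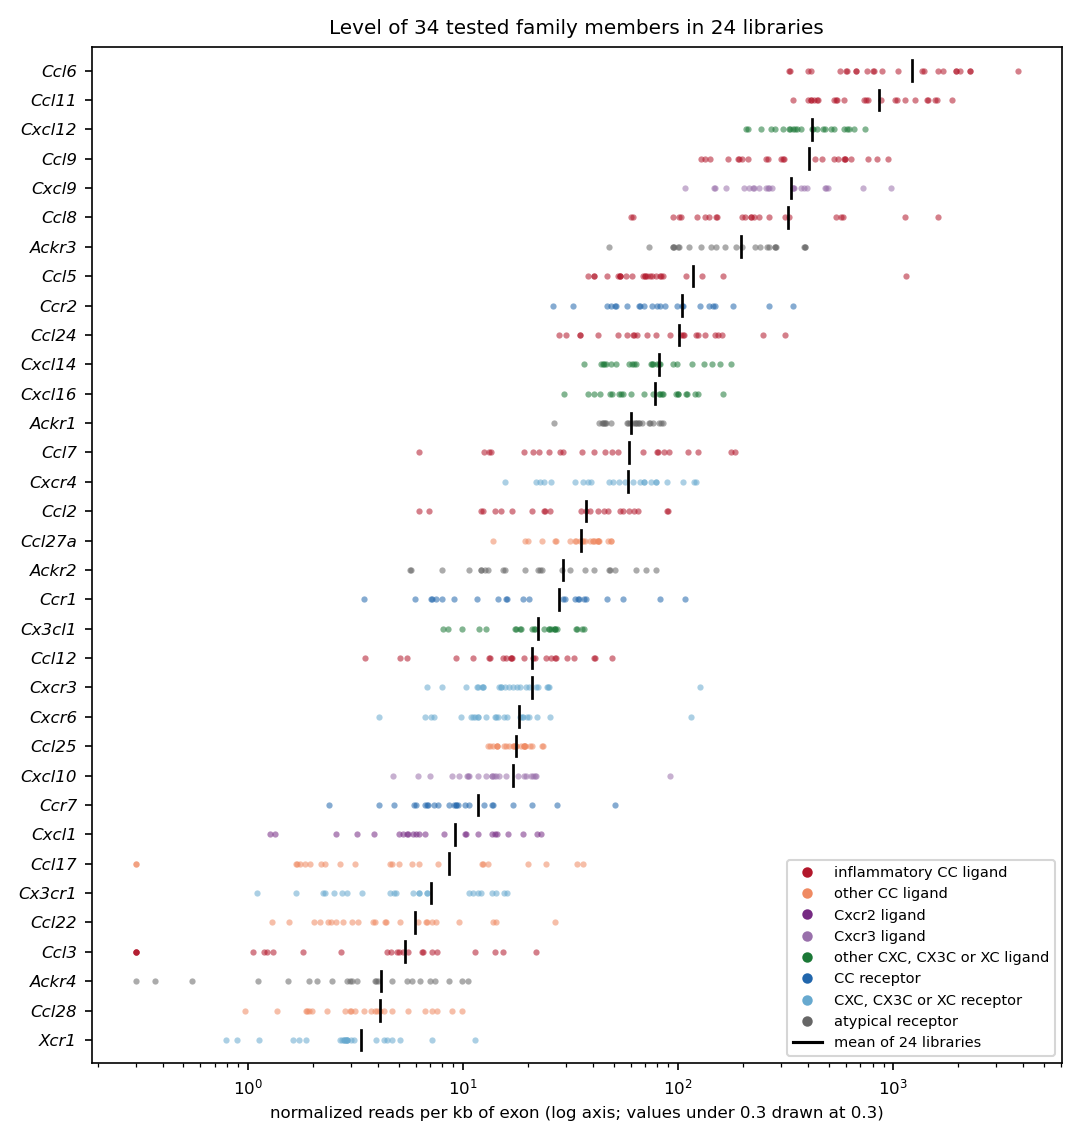
Level of 34 of the 35 tested members in normalized reads per kb of exon on a log axis, with 1 point per library (24 libraries), coloured by role, and a black line at the mean. Ccl6 and Ccl11 lie at the top with means of 1219 and 858, and the single points far to the right for Ccl5, Cxcr3, Cxcr6 and Cxcl10 are VDD HF female 2081.

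The first question was what the HF diet did to these genes, averaged over maternal diet and sex. Chemokine genes were mostly higher under HF, and the genes with the smallest p encode ligands of monocytes and eosinophils (Ccl24, Ccl7 and Ccl2), the receptors Cx3cr1 and Xcr1, and the interferon-induced Cxcl9. In the fit over 24 libraries (limma, Benjamini-Hochberg adjusted p under 0.05), 17 members rose and 1, Ccl25, fell, while 17 of the 35 tested did not pass. Over all 18414 genes tested, 29.1% passed in either direction and 15.0% as higher. The members' median log2 fold change was 0.56, beside 0.01 over all genes tested, with 31 above 0 and 4 below. The filter on low values can keep a gene because it is high in 1 group, so the count was repeated over genes with a mean of at least 10 normalized reads over all libraries, where 18 of 33 members and 31.2% of all genes passed. Over genes with any read, 16 of 52 members and 13.4% of all genes passed. Without the 5 libraries that carried the most RNA of muscle, kidney or T cells, 20 of 34 members passed, beside 27.8% of all genes, and Cxcl1, Cxcl10 and Cxcl12 did not. A rule with adjusted p under 0.01 and a fold above 1.5 or below 0.66 kept 7 of them, all higher. They were Ccl2, Ccl7, Ccl22, Ccl24, Cx3cr1, Cxcl9 and Xcr1, beside 5.78% of all genes as higher and 9.43% in either direction. Fold changes are on the log2(normalized reads + 1) scale, which understates the change of low genes.

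**Figure D2:**
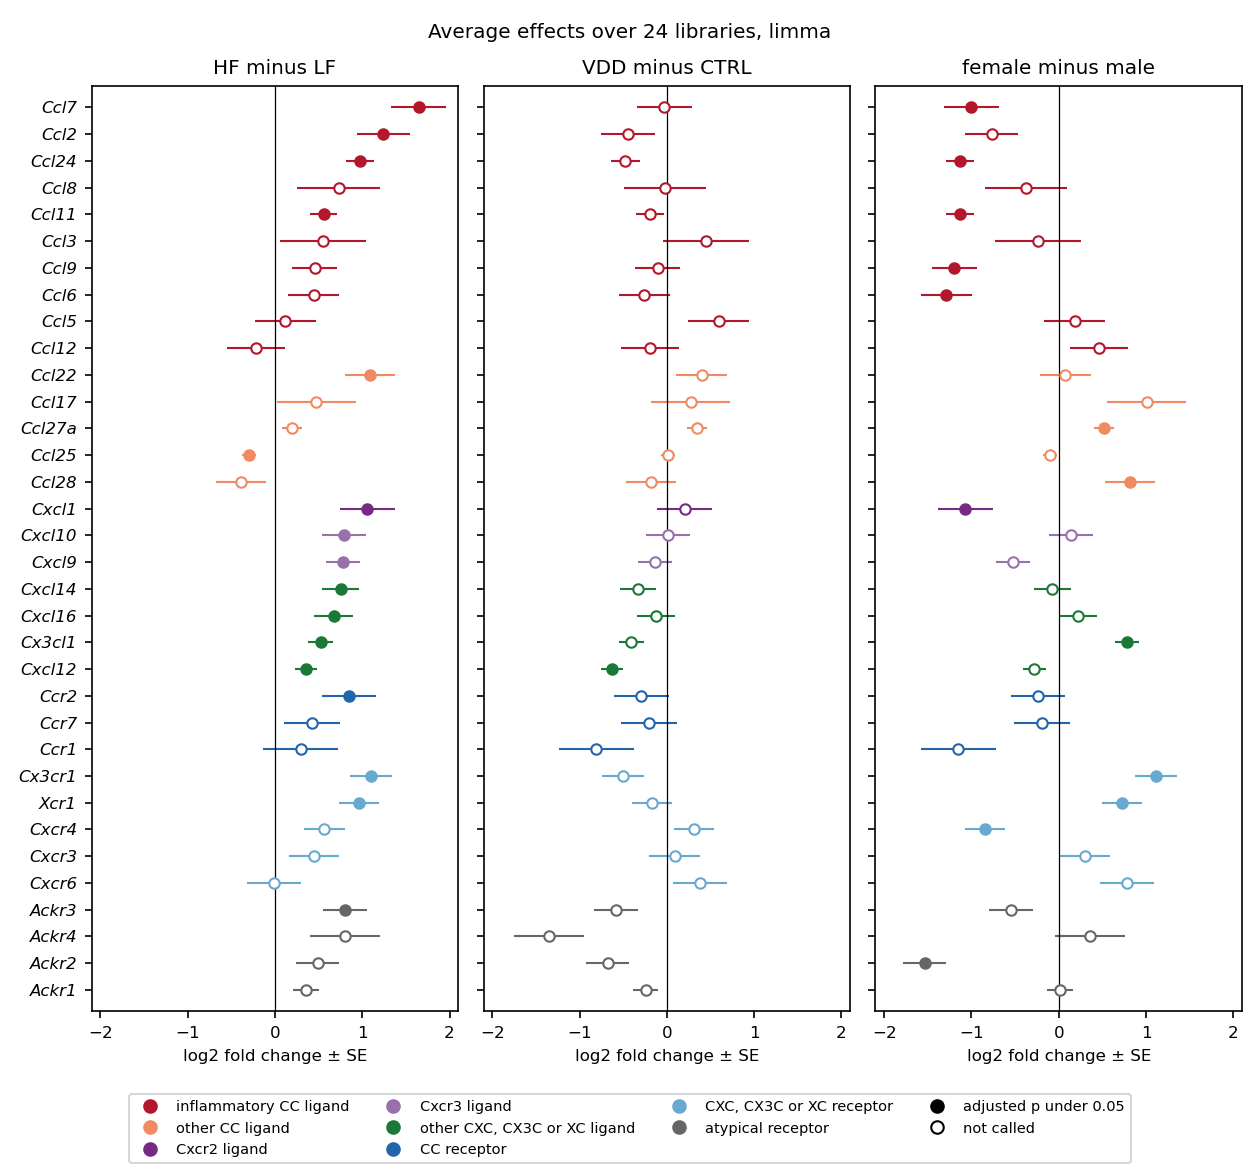
Log2 fold change with its standard error (SE) for 34 of the 35 tested members under 3 contrasts over 24 libraries: HF minus LF, VDD minus CTRL and female minus male. Filled points passed an adjusted p under 0.05: 17 in the first panel, 1 (Cxcl12) in the second and 13 in the third.

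Among the inflammatory CC ligands, 4 of the 10 tested (of 12) rose under HF and 6 did not pass. Ccl2, the monocyte chemoattractant gene on chr11 (chr11:82035571-82037453, mm10), had 27.1, 28.8 and 62.9 normalized reads in CTRL LF males and 48.3, 61.0 and 70.9 in CTRL HF males, 14.1, 23.9 and 42.3 in VDD LF males and 51.6, 73.8 and 102 in VDD HF males. In females it had 17.0, 19.1 and 27.4 (CTRL LF), 44.1, 53.5 and 67.3 (CTRL HF), 7.06, 13.8 and 16.0 (VDD LF) and 7.87, 40.3 and 101 (VDD HF). The LF and HF mice did not overlap in VDD males and CTRL females, and 1 VDD HF female, 2083, was as low as the LF females. The average log2 fold change was 1.24 (SE 0.30, adjusted p = 0.00478, 2.37-fold), and the mean was higher under HF in 4 of 4 pairs of groups.

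Ccl7, its neighbour on the same chromosome (chr11:82045712-82047525), encodes another Ccr2 ligand and had the highest rise of the family. It had 18.1, 22.5 and 54.7 normalized reads in CTRL LF males and 64.0, 69.0 and 72.7 in CTRL HF males, 15.4, 16.9 and 36.4 in VDD LF males and 98.5, 141 and 148 in VDD HF males. In females the values were 4.99, 23.3 and 28.7 (CTRL LF), 32.4, 41.9 and 64.4 (CTRL HF), 10.1, 10.6 and 20.02 (VDD LF) and 10.8, 39.2 and 89.0 (VDD HF). The LF and HF mice did not overlap in 3 of the 4 pairs, all but VDD females (average log2 fold change 1.65, SE 0.32, adjusted p = 0.000862, 3.13-fold).

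The eosinophil ligand genes Ccl24 (chr5:135569937-135573049) and Ccl11 (chr11:82057823-82062955) rose too. Ccl24 had 119, 173 and 206 normalized reads in CTRL LF and 191, 321 and 406 in CTRL HF males, and 74.5, 83.5 and 92.7 in VDD LF and 138, 159.5 and 198 in VDD HF males. Females had 35.9, 45.0 and 45.4 (CTRL LF), 102, 136 and 156 (CTRL HF), 39.0, 68.1 and 80.0 (VDD LF) and 55.1, 80.5 and 133 (VDD HF). The groups were apart in VDD males and CTRL females, and overlapped in the other two pairs. Ccl24 had the smallest p of the family (log2 fold change 0.98, SE 0.16, adjusted p = 0.000295), and it held in all 24 fits without 1 library, with adjusted p of 9.88e-05 to 0.000813. Ccl11 ranged from 371 to 1359.9 (median 615) normalized reads in the 12 LF mice and from 446 to 2038 (median 1023) in the 12 HF mice, 2 ranges that overlap widely (log2 fold change 0.56, SE 0.16, adjusted p = 0.0132). Their receptor gene Ccr3 was not tested, with at most 11.6 normalized reads in any library.

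The other inflammatory CC ligands did not pass. Ccl6 (0.44 ± 0.29, log2 fold change ± SE), Ccl9 (0.45 ± 0.26), Ccl8 (0.73 ± 0.47) and Ccl3 (0.55 ± 0.49) had positive estimates with adjusted p of 0.205 to 0.432. Ccl12, another Ccr2 ligand gene that lies 38889 bases past Ccl11, had -0.22 ± 0.33. Ccl5, made by T and NK cells, had 0.12 ± 0.35, and -0.20 (adjusted p = 0.509) without VDD HF female 2081.

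Macrophage markers moved with these genes. Of 9 macrophage markers, 7 (Adgre1, Cd68, Csf1r, Fcgr1, Itgam, Lyz2 and Mrc1) were higher and 1 (Mertk) lower under HF at adjusted p under 0.05. Their summed level was 6063.5 to 24836 normalized reads in CTRL LF mice and 12969 to 27184 in CTRL HF mice, and 5134 to 18359 in VDD LF and 6032 to 38687 in VDD HF mice. Of 4 stromal progenitor markers, 2 (Cd34 and Pi16) were higher under HF, with sums of 10088.5 to 47875 normalized reads in LF and 10311 to 37145 in HF libraries. Of 5 adipocyte markers Lep was higher and Cidec lower (sums of 282201 to 797697 in LF and 275995 to 531555 in HF), and of 3 tested lymphatic markers Flt4 was higher. The part of these markers in the rise of the chemokine genes was not tested.

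**Figure D3:**
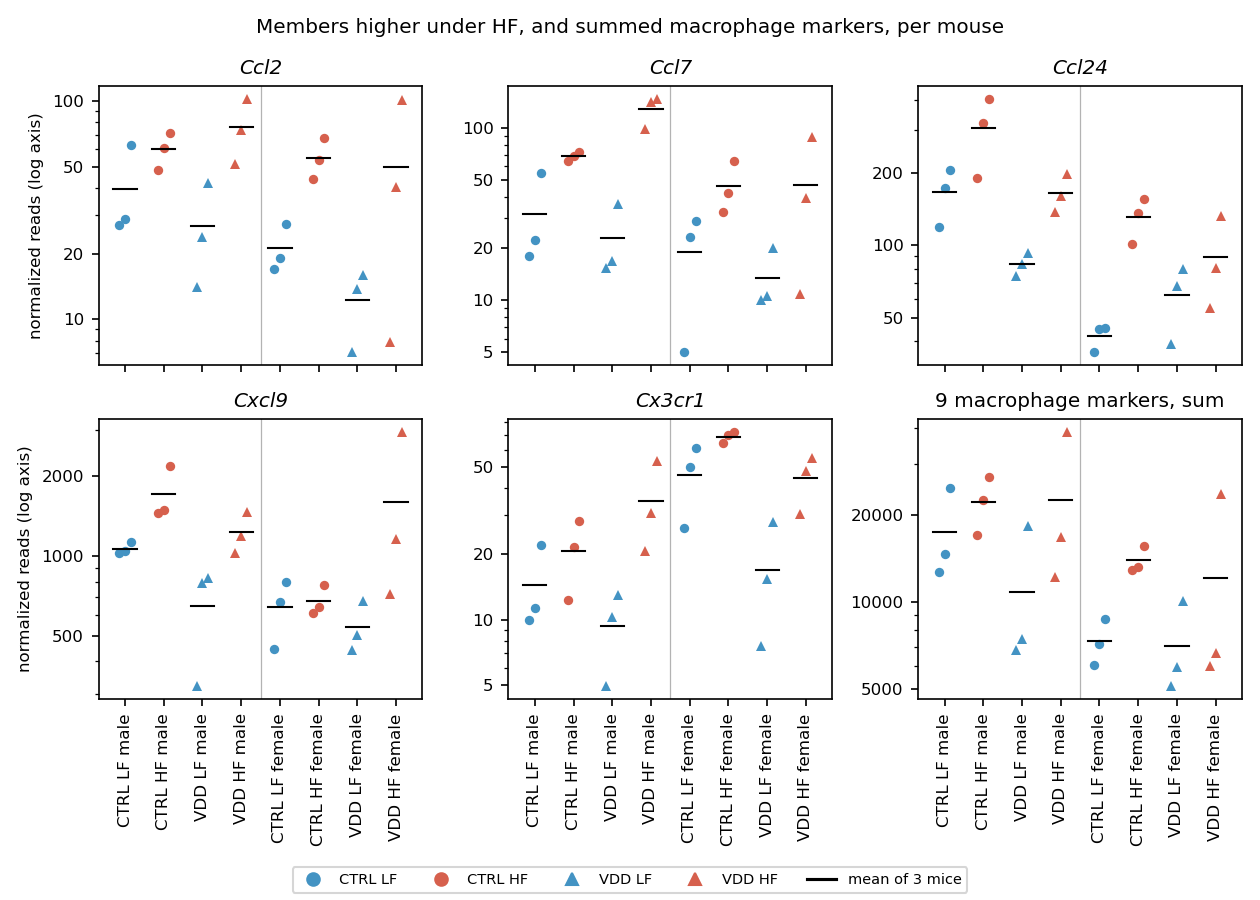
Normalized reads (log axis) of Ccl2, Ccl7, Ccl24, Cxcl9 and Cx3cr1 and the summed level of 9 macrophage markers, with 1 point per mouse, sorted within each of the 8 groups of 3, and a line at the group mean. HF mice (red) had a higher mean than LF mice (blue) in each pair of groups for every gene, while single mice such as VDD HF female 2083 (Ccl2, 7.87) lay as low as LF mice.

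The CXC ligands of Cxcr2 and Cxcr3 lie in clusters on chromosome 5, and the 3 of them with enough reads all rose under HF. Cxcl1 (KC), a neutrophil chemoattractant gene, ranged from 2.35 to 26.8 (median 9.84) normalized reads in the 12 LF mice and from 9.84 to 43.0 (median 22.4) in the 12 HF mice (log2 fold change 1.06, SE 0.31, adjusted p = 0.0148). In males its groups were 2.50, 19.2 and 21.9 (CTRL LF), 26.4, 30.3 and 43.0 (CTRL HF), 9.39, 10.3 and 26.8 (VDD LF) and 25.5, 35.6 and 41.3 (VDD HF). The other Cxcr2 ligand genes of the set (Cxcl2, Cxcl3, Cxcl5 and Cxcl15) did not reach the filter of 10 reads, nor did their receptor Cxcr2, with at most 17.0 normalized reads for Cxcl2. The CXC ligand genes Ppbp and Pf4 fall outside the symbol rule. In the same limma fit Ppbp did not pass under HF (log2 fold change 0.10, adjusted p = 0.836), while Pf4 rose (0.59, adjusted p = 0.028).

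Cxcl9 and Cxcl10 are induced by interferons and recruit activated T cells through Cxcr3. Cxcl9 had 1027, 1039.9 and 1126 normalized reads in CTRL LF males and 1450.2, 1492 and 2182.2 in CTRL HF males, 323, 792 and 825 in VDD LF males and 1027, 1194 and 1464 in VDD HF males. In females it had 445, 671 and 801 (CTRL LF), 610.1, 644 and 774 (CTRL HF), 442, 501 and 677 (VDD LF) and 718, 1159 and 2933 (VDD HF). The groups did not overlap in 3 of 4 pairs, and CTRL females were the exception (log2 fold change 0.78, SE 0.19, adjusted p = 0.00524). Cxcl10 was lower, at 10.6 to 48.8 (median 23.8) normalized reads under LF and 21.6 to 205 (median 37.9) under HF (log2 fold change 0.79, SE 0.25, adjusted p = 0.0244), and its highest value was VDD HF female 2081. Without that mouse the log2 fold changes were 0.64 (adjusted p = 0.00505) for Cxcl9 and 0.60 (adjusted p = 0.0294) for Cxcl10. Cxcl11 was not tested, with at most 5.96 normalized reads.

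The promoters of these 3 genes are shown because all 3 rose under HF and Cxcl1 and Cxcl10 are textbook targets of NF-kB. Printed are the 250 bases before the start of each gene as RefSeq gives it (GRCm38.p6), 5′ to 3′ on the gene's strand. Capitals mark the NF-kB letters GGGAANTTC or GGGANTTCC and the interferon-stimulated element letters GAAANNGAA, searched on both strands. The letters were picked after the promoters had been read.
Cxcl1 (chr5:90890995-90891244, + strand): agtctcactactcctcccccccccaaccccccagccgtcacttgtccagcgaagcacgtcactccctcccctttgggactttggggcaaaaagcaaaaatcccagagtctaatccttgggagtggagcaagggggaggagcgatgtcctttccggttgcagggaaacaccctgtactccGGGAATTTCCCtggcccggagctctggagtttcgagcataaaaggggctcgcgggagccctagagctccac
Cxcl9 (chr5:92328080-92328329, - strand): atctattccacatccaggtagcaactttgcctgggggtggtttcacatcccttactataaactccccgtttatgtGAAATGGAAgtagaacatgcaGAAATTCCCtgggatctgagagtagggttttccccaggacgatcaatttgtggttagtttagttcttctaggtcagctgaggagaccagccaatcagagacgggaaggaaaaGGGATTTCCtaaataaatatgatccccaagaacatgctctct
Cxcl10 (chr5:92348890-92349139, - strand): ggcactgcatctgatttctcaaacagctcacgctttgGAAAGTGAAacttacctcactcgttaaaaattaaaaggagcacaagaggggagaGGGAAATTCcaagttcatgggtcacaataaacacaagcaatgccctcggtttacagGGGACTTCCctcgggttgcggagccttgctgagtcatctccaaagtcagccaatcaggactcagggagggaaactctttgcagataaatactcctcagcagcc
In Cxcl1 the capitals cover 2 overlapping matches of GGGAANTTC, 1 on each strand, from 71 to 61 bases before the start. Cxcl9 holds GGGANTTCC from 42 to 34 bases before the start, GGGAANTTC on the other strand (154 to 146) and the interferon-stimulated letters (175 to 167). Cxcl10 holds the interferon-stimulated letters (213 to 205), GGGAANTTC (159 to 151) and GGGANTTCC (103 to 95). Such a window was found for 42 of the 57 members. Of all 32851 windows, 2.31% hold either NF-kB string and 7.13% the interferon-stimulated letters. Besides these 3, the NF-kB strings occur in Ccl1, Ccr3, Ccr6, Cxcl2 and Cxcl3, none of which reached the filter of 10 reads, and the interferon-stimulated letters in Ccl1, Ccl3, Ccr2, Cxcl14 and Cxcr1. A match is a run of letters, and binding was not measured in these libraries.

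Of the remaining ligands, Cx3cl1, Cxcl12, Cxcl14 and Cxcl16 all rose under HF. Cx3cl1 (fractalkine), a membrane-bound ligand of Cx3cr1, had 31.7 to 105 (median 78.2) normalized reads in LF mice and 50.4 to 143 (median 102) in HF mice (log2 fold change 0.52, SE 0.14, adjusted p = 0.00934). Cxcl14, expressed in fat and epithelia, had 66.9 to 172 (median 101) and 79.9 to 320.0 (median 165) (log2 fold change 0.75, SE 0.21, adjusted p = 0.0107). Cxcl16, the ligand of Cxcr6, had 88.7 to 302 (median 161) and 123 to 489.9 (median 298) (log2 fold change 0.67, SE 0.22, adjusted p = 0.0274), and its call was lost without any 1 of 5 mice, 2293, 2131, 2078, 2335 and 2311, with adjusted p of 0.00563 to 0.055 over the 24 fits. Cxcl12, the stromal ligand of Cxcr4 and Ackr3, had 1683 to 5356 (median 2883) and 2315 to 6012 (median 3883) (log2 fold change 0.35, SE 0.13, adjusted p = 0.0434). This was the smallest of the rises, and it did not pass without any 1 of 15 mice (2293, 2296, 2131, 2078, 2310, 2298, 2307, 2125, 2335, 2290, 2291, 2303, 2311, 2081 and 2121), with adjusted p of 0.0169 to 0.087.

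Of the 10 CC ligands outside the inflammatory group above, 5 were tested, of which Ccl22 rose and Ccl25 fell. Ccl22, a Ccr4 ligand of dendritic cells and macrophages, had 2.99 to 31.9 (median 6.19) normalized reads under LF and 5.49 to 61.9 (median 15.7) under HF (log2 fold change 1.09, SE 0.29, adjusted p = 0.00791). In VDD mice of both sexes the groups did not overlap, with 4.70, 5.96 and 6.43 against 7.51, 15.6 and 22.1 in males and 7.06, 8.81 and 10.1 against 15.7, 33.0 and 61.9 in females, and CTRL females had 2.99, 3.58 and 5.63 under LF and 5.49, 16.6 and 17.3 under HF. The log2 differences were 0.046 in CTRL males, 1.16 in VDD males, 1.37 in CTRL females and 1.79 in VDD females, and the difference between VDD and CTRL mice did not pass as an interaction in males (1.11, adjusted p = 1) or females (0.42, adjusted p = 0.942). Ccl25, which attracts thymocytes and gut T cells through Ccr9, had 138, 142 and 156 normalized reads in CTRL LF and 98.9, 128 and 143 in CTRL HF males, 143, 153 and 174 in VDD LF and 107, 107 and 130.3 in VDD HF males. The female groups had 131, 145 and 176 (CTRL LF), 97.2, 102 and 106 (CTRL HF), 118, 122 and 128 (VDD LF) and 115, 127 and 144 (VDD HF). It was lower under HF in 3 of 4 pairs but not in VDD females (log2 fold change -0.30, SE 0.08, adjusted p = 0.0093). Exons of Elavl1 overlap those of Ccl25 on the other strand, and no source says whether the counting used strand. Ccl17, Ccl27a and Ccl28 did not pass, with log2 fold changes of 0.48, 0.19 and -0.39.

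Of the 17 signalling receptors, 9 were tested, and Cx3cr1, Xcr1 and Ccr2 were among the 4 that rose under HF. Cx3cr1, the fractalkine receptor of monocytes and resident macrophages, had 10.01, 11.3 and 21.9 normalized reads in CTRL LF and 12.4, 21.5 and 28.2 in CTRL HF males, 4.97, 10.3 and 12.9 in VDD LF and 20.6, 30.6 and 53.0 in VDD HF males. In females it had 26.3, 49.9 and 61.1 (CTRL LF), 64.0, 70.0 and 72.1 (CTRL HF), 7.54, 15.3 and 28.0 (VDD LF) and 30.5, 47.7 and 54.7 (VDD HF). It was apart in 3 of 4 pairs, all but CTRL males (log2 fold change 1.10, SE 0.24, adjusted p = 0.00209). Xcr1, which marks dendritic cells that cross-present antigen, had 3.52 to 19.0 (median 10.1) normalized reads under LF and 12.2 to 50.3 (median 15.6) under HF (log2 fold change 0.96, SE 0.23, adjusted p = 0.00431). Of 4 dendritic cell markers, 2 (Clec9a and Cd209a) were also higher under HF.

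Ccr2, the Ccl2 receptor of inflammatory monocytes, had 177 to 708 (median 445) normalized reads under LF and 218 to 2298 (median 895) under HF (log2 fold change 0.85, SE 0.31, adjusted p = 0.0459). Its call did not hold without any 1 of 15 mice (2287, 2293, 2128, 2131, 2078, 2302, 2307, 2308, 2124, 2335, 2290, 2291, 2303, 2311 and 2081), with adjusted p of 0.0128 to 0.0889 and the highest without VDD HF male 2308, nor with limma-voom. Ccr2 was highest in VDD HF male 2308, with 2297.8 normalized reads, the mouse that also had the highest macrophage marker sum of 38687. Not passing were Cxcr4 (0.57 ± 0.23, adjusted p = 0.0704), Ccr1 (0.30 ± 0.43), Ccr7 (0.42 ± 0.32), Cxcr3 (0.45 ± 0.29) and Cxcr6 (-0.01 ± 0.31). Cxcr4, which retains leukocytes and progenitors where Cxcl12 is made, had 28.1 to 219.5 (median 77.7) normalized reads under LF and 59.7 to 190.0 (median 123) under HF.

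All 4 atypical receptors had positive estimates, and Ackr3 passed. Ackr3, which takes up Cxcl12, had 317, 376 and 428 normalized reads in CTRL LF and 804, 946 and 956 in CTRL HF females, and 552, 619 and 866 in CTRL LF and 885, 939.5 and 1282 in CTRL HF males. In VDD mice it had 159, 317 and 1296 (LF males), 500.1, 763 and 1306 (HF males), 321, 335 and 337 (LF females) and 246, 473 and 665 (HF females). The CTRL groups were apart in both sexes and the VDD groups overlapped (log2 fold change 0.81, SE 0.25, adjusted p = 0.0212). The highest VDD LF male value belonged to 2310, which carried the most skeletal muscle RNA and also had the highest stromal progenitor marker sum (47875 normalized reads). The part of either in this value was not tested. The Duffy receptor Ackr1 (0.36 ± 0.15, adjusted p = 0.0736), the CC chemokine scavenger Ackr2 (0.49 ± 0.25) and Ackr4 (0.80 ± 0.40) did not pass. Ackr1, which carries chemokines across venules, had 37.3 to 104 (median 73.0) normalized reads under LF and 62.0 to 119.9 (median 92.2) under HF. It shares exon sequence with Cadm3 on the same strand in the annotation, and Ackr4 with Acad11 on the other strand, as do Cxcl10 with Art3, Cxcl16 with Zmynd15 and Cx3cr1 with Gm33858.

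Each pair of groups was also compared on its own, with 3 mice against 3 and the thresholds of the study's methods (adjusted p under 0.01 and a fold above 1.5 or below 0.66, limma). The study applied these thresholds to DESeq2 and reported far more genes in every pair than limma called here. A member without a call here is therefore not shown to be unchanged. No member passed for HF against LF in CTRL males, where 0.0578% of all genes did (0.0128% higher and 0.0449% lower), in VDD males (0.0752%, with 0.0313% higher and 0.0438% lower), or in CTRL and VDD females (0.0% each), and limma-voom called 0 members in each too. At an unadjusted p under 0.05 there were 12 of 32 members tested in CTRL males, 11 of 31 in VDD males, 14 of 32 in CTRL females and 4 of 33 in VDD females. Over all genes these shares were 18.8%, 25.9%, 28.8% and 5.05%. At an adjusted p under 0.05 with no fold threshold, 4 members rose in CTRL females, where 7.4% of all genes passed, 3.24% as higher. These were Ackr3 (log2 fold change 1.25, SE 0.14, adjusted p = 0.0176), Ccl24 (log2 fold change 1.58, SE 0.23, adjusted p = 0.0206), Ackr4 (log2 fold change 1.51, SE 0.29, adjusted p = 0.0334) and Ccl2 (log2 fold change 1.326, SE 0.29, adjusted p = 0.041). In VDD males 1 member rose, Ccl7 (log2 fold change 2.53, SE 0.39, adjusted p = 0.0259), beside 5.35% of all genes, 3.0% as higher. The adjusted p of Ccl7 was 0.0068 without VDD LF male 2310, which passes the stricter rule too. That mouse had the most Ccl7 of the VDD LF males (36.4 normalized reads), so leaving it out can only widen the difference.

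Over the 4 pairs, which share no mouse, 18 of 35 members had a higher mean under HF in 4 of 4 and 0 had a lower one, beside 20.8% and 19.8% of all genes. HF and LF mice were fully apart, with HF higher, for 9 members in CTRL males (12.6% of all genes), 12 in VDD males (15.9%), 16 in CTRL females (17.3%) and 5 in VDD females (5.95%). With HF lower they were apart for 3 in CTRL males (Ccl12, Ccr1 and Cxcr6, beside 10.7% of all genes), 2 in VDD males (Ccl17 and Ccl25, 15.4%), 1 in CTRL females (Ccl25, 16.4%) and 1 in VDD females (Ccl27a, 5.91%). Cx3cr1, Ccl7 and Cxcl9 were apart in 3 pairs each. In VDD females the genes apart with HF higher were Ccl22, Cx3cr1, Cxcl10, Cxcl9 and Xcr1.

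Maternal diet was compared next, over both offspring diets and sexes. The ligand gene Cxcl12 was lower in offspring of VDD mothers, and no other member passed. Of the 35 members 1 was called, beside 4.57% of all genes (2.04% as lower). These comparisons use the same 24 mice as those of the offspring diet. The members' median log2 fold change was -0.18 beside -0.01 over all genes. Cxcl12 (chr6:117168535-117181367) holds stem cells and leukocytes in tissues through Cxcr4. It had 2806, 3593 and 5079.6 normalized reads in CTRL LF males and 1683, 1974 and 2904 in VDD LF males, 4831, 4970.0 and 6012 in CTRL HF males and 3404, 3929 and 4322 in VDD HF males. The females had 3042, 3448 and 5356 (CTRL LF), 1717, 2197 and 2862 (VDD LF), 2679, 3837 and 4185 (CTRL HF) and 2315, 2500.3 and 2714 (VDD HF). CTRL and VDD mice were apart in LF females and HF males and overlapped by 1 mouse or more in the other two pairs. The average log2 fold change was -0.63 (SE 0.13, adjusted p = 0.0148, 1.55-fold lower), with adjusted p of 0.00537 to 0.0376 over the 24 fits without 1 library. It did not pass when the 5 libraries with most skeletal muscle, kidney or T lymphocyte RNA were left out together (-0.65, adjusted p = 0.0651), a setting chosen after the data were seen, under which Ackr4 passed in its place (-1.35, adjusted p = 0.0439). Pdgfra, 1 of 4 stromal progenitor markers, was also lower in VDD, and the stromal markers summed to 17213 to 37145 normalized reads in CTRL and 10088.5 to 47875 in VDD libraries. Their part in the difference was not tested.

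The 4 atypical receptors all had negative estimates for VDD, and none passed. Of 3 tested lymphatic markers, 1 (Lyve1) was lower in VDD. The 5 lymphatic markers summed to 336 to 1044 normalized reads in CTRL and 212 to 806 in VDD libraries, and their part was not tested. Ackr4, a scavenger of Ccl19, Ccl21 and Ccl25, had 17.3, 25.0 and 29.4 normalized reads in CTRL LF males and 1.29, 1.99 and 21.1 in VDD LF males, 16.4, 33.7 and 37.6 in CTRL HF and 5.96, 10.3 and 46.0 in VDD HF males. In females it had 13.1, 16.1 and 20.9 (CTRL LF), 8.24, 11.3 and 21.6 (VDD LF), 39.8, 53.2 and 56.7 (CTRL HF) and 2.95, 15.5 and 30.9 (VDD HF). CTRL and VDD mice were apart in HF females only (log2 fold change -1.35, SE 0.40, adjusted p = 0.0561). It passed without VDD LF male 2310 (-1.61, adjusted p = 0.0118), VDD HF male 2308 (adjusted p = 0.0253), VDD LF female 2312 (0.0378) or VDD HF female 2081 (0.0318), and with limma-voom and upper-quartile scaling. Ackr2, which degrades inflammatory CC chemokines, had -0.68 ± 0.25 (adjusted p = 0.109) and passed without 2081 (-0.85, adjusted p = 0.0229) or without 2310 (-0.78, adjusted p = 0.0486). It was apart in males under both diets, with 126, 149 and 150.5 in CTRL LF against 33.4, 72.5 and 115 in VDD LF and 199, 221 and 246 in CTRL HF against 60.5, 97.6 and 159 in VDD HF. Ackr3 (-0.58 ± 0.25, adjusted p = 0.175) passed without 2310 (-0.79, adjusted p = 0.0133). Each mouse left out in these fits was the highest of its VDD group for the gene in question. Leaving it out can only lower the VDD mean, so these fits cannot add support for a difference.

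Of the other members, Ccl24 (-0.48 ± 0.16), Cx3cl1 (-0.40 ± 0.14), Cx3cr1 (-0.50 ± 0.24) and Ccl27a (0.35 ± 0.11, higher in VDD) had unadjusted p under 0.05 and adjusted p of 0.0772 to 0.213. None of these 4 was called over the 24 libraries, and 3 of them passed only in some fits without 1 library. Ccl24 passed without 2081 (adjusted p = 0.042), Cx3cl1 without CTRL LF male 2293 (0.0332), and Ccl27a without CTRL HF male 2127 (0.0369), 2310 (0.043) or 2308 (0.0491), while Cx3cr1 passed in none of the 24 fits without 1 library. For Ccl24 and Ccl27a, each mouse left out was the one of its group that lay furthest against the difference, so these fits cannot add support for it. Ccl27a encodes a skin T cell attractant, and its exons overlap Il11ra1 on the other strand. The Ccr2 ligand genes did not pass, Ccl2 with -0.44 ± 0.30 and Ccl7 with -0.03 ± 0.32.

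Within single pairs of groups no member passed for VDD against CTRL in LF males, HF males, LF females or HF females, and 0.0% of all genes did in each (limma). The study, with DESeq2, reported changed genes in each of these pairs. With limma-voom 0 members passed in each as well. At an unadjusted p under 0.05 the members numbered 6 of 30, 4 of 32, 2 of 31 and 2 of 35 in that order, beside 6.79%, 5.31%, 12% and 16.7% of all genes. With the smallest p were Ccl24 in LF males (log2 fold change -0.94, SE 0.27, adjusted p = 0.641), Ccl7 in HF males (log2 fold change 0.87, SE 0.22, adjusted p = 0.94), Cxcl12 in LF females (log2 fold change -0.79, SE 0.26, adjusted p = 0.392) and Ackr3 in HF females (log2 fold change -1.06, SE 0.34, adjusted p = 0.217). Ccl7 was thus the one gene of these 4 with a higher value in VDD, where the 3 VDD HF males (98.5, 141 and 148 normalized reads) all exceeded the 3 CTRL HF males (64.0, 69.0 and 72.7).

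Males and females differed for more members than maternal diet did. Of the 35 tested, 13 passed, 5 higher and 8 lower in females, beside 19.8% of all genes (10.8% higher and 9.03% lower). The 5 inflammatory CC ligands Ccl6, Ccl7, Ccl9, Ccl11 and Ccl24 were lower in females, and the fractalkine pair Cx3cl1 and Cx3cr1 was higher. The median over the tested members was -0.19 beside 0.01 over all genes. In the fit over genes with any read, where 13 of 52 members and 9.74% of all genes passed, 2 members under the filter of 10 reads passed as well, and were named after their values were seen. The Cxcr2 ligand gene Cxcl2 had 0 to 17.0 (median 5.42) normalized reads in males and 0 to 3.87 (median 1.19) in females (log2 fold change -1.45, SE 0.37, adjusted p = 0.0146). Ccr4, a chemokine receptor gene of T cells whose product binds Ccl17 and Ccl22, had 0 to 5.47 (median 0.90) and 0.83 to 10.6 (median 3.54) (log2 fold change 1.25, SE 0.35, adjusted p = 0.0274).

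Ccl11 had the smallest p (log2 fold change -1.13, SE 0.16, adjusted p = 7.17e-05). In males it had 822, 1129.8 and 1359.9 (CTRL LF), 1569, 1734 and 2038 (CTRL HF), 461, 794 and 1224 (VDD LF) and 1097, 1544 and 1692 (VDD HF) normalized reads. The females had 371, 435 and 591 (CTRL LF), 574, 586 and 808 (CTRL HF), 479, 482 and 638 (VDD LF) and 446, 449 and 950.2 (VDD HF). The sexes were apart in every pair except VDD LF. Ccl24 differed as much (log2 fold change -1.13, SE 0.16, adjusted p = 9.38e-05), at 74.5 to 406 (median 166) normalized reads in males and 35.9 to 156 (median 74.0) in females. Eosinophil markers were near 0 in both sexes.

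Ackr2, the scavenger of such ligands, had the widest difference (log2 fold change -1.53, SE 0.25, adjusted p = 0.000259, 2.89-fold lower in females). In CTRL mice the sexes were apart, at 126, 149 and 150.5 normalized reads in LF males against 18.0, 39.4 and 40.6 in LF females, and 199, 221 and 246 in HF males against 49.0, 69.8 and 71.4 in HF females. In VDD mice they overlapped, at 33.4, 72.5 and 115 against 37.6, 37.7 and 48.0 under LF and 60.5, 97.6 and 159 against 17.7, 24.8 and 90.2 under HF. Whether the sex difference itself differed with maternal diet was not tested.

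Ccl6 (log2 fold change -1.29, SE 0.29, adjusted p = 0.00414) and Ccl9 (log2 fold change -1.20, SE 0.26, adjusted p = 0.00322), neighbours on chromosome 11 and made by myeloid cells, were lower in females. Ccl6 had 1090.0 to 6811 (median 2977) normalized reads in males and 588 to 4068 (median 1142) in females, and Ccl9 603 to 2869.8 (median 1738) and 387 to 2558 (median 614). In both genes VDD HF female 2081 was the highest female, at 4068 and 2558. Macrophage markers moved in the same direction, with 7 of 9 (Adgre1, Cd163, Cd68, Csf1r, Itgam, Lyz2 and Mrc1) lower in females and sums of 6826 to 38687 in males and 5134 to 23667 in females. Their part in the difference was not tested. Cxcr4 (-0.84 ± 0.23), Cxcl1 (-1.07 ± 0.31) and Ccl7 (-1.002 ± 0.32) were lower in females too, the last with its call lost without any 1 of 6 mice (2296, 2307, 2125, 2292, 2303 and 2311, adjusted p of 0.00763 to 0.0617).

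Higher in females were Cx3cl1 (log2 fold change 0.78, SE 0.14, adjusted p = 0.000767) and its receptor gene Cx3cr1 (log2 fold change 1.12, SE 0.24, adjusted p = 0.00283). Cx3cl1 (chr8:94772009-94782427) had 38.8, 68.4 and 83.5 (CTRL LF), 69.0, 98.9 and 104 (CTRL HF), 31.7, 33.4 and 46.7 (VDD LF) and 50.4, 81.7 and 84.4 (VDD HF) normalized reads in males. The females had 93.2, 98.8 and 105 (CTRL LF), 132, 140.0 and 143 (CTRL HF), 73.0, 101 and 103 (VDD LF) and 72.2, 107 and 132 (VDD HF). The sexes were apart in all pairs but VDD HF. Cx3cr1 had 4.97 to 53.0 (median 16.8) normalized reads in males and 7.54 to 72.1 (median 48.8) in females. Its direction was opposite to that of the 7 macrophage markers above. Ccl27a (0.52 ± 0.11), Xcr1 (0.72 ± 0.23) and Ccl28 (0.81 ± 0.28) were also higher in females. Ccl27a had 32.5 to 101 (median 72.0) normalized reads in males and 74.8 to 116 (median 97.9) in females, and the mucosal ligand gene Ccl28 4.70 to 32.1 (median 12.5) and 9.29 to 48.0 (median 20.4). Low in both sexes, Xcr1 had 3.52 to 20.8 (median 12.3) and 7.17 to 50.3 (median 15.6). Of the 4 dendritic cell markers none was higher in females and 2 (Cd209a and Zbtb46) were lower, the opposite direction to Xcr1, with sums of 581 to 1048 normalized reads in males and 392 to 868 in females. The call of Xcr1 was lost without any 1 of 9 mice (2293, 2302, 2298, 2307, 2124, 2125, 2291, 2303 and 2081) and that of Ccl28 without any 1 of 17 (2287, 2296, 2127, 2128, 2131, 2310, 2298, 2308, 2124, 2125, 2335, 2290, 2292, 2303, 2311, 2081 and 2083), with adjusted p of 0.0163 to 0.0683 and 0.0239 to 0.093.

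**Figure D4:**
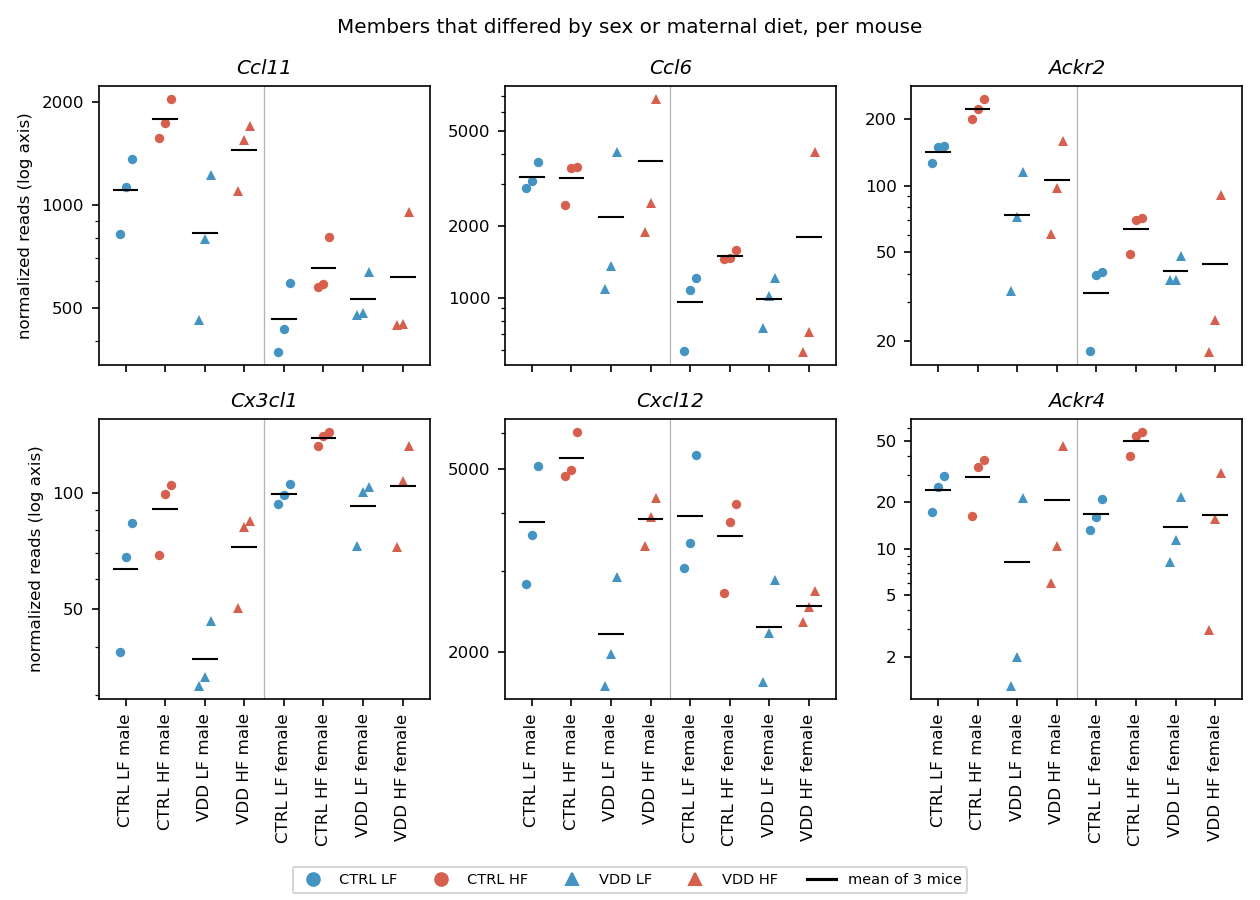
Normalized reads (log axis) of Ccl11, Ccl6, Ackr2, Cx3cl1, Cxcl12 and Ackr4, with 1 point per mouse, sorted within each of the 8 groups of 3, and a line at the group mean. Males lie left and females right of the grey line: Ccl11, Ccl6 and Ackr2 had higher means in males and Cx3cl1 in females in each pair, and the 12 VDD mice (triangles) had 1683 to 4322 reads of Cxcl12 against 2679 to 6012 in the 12 CTRL mice (circles).

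Whether the response to HF depended on the mother's diet was tested as an interaction. No member passed in males, in females or for the difference between the sexes, where 0.0%, 0.0% and 0.00543% of all genes did (limma). At an unadjusted p under 0.05 there were 1, 5 and 2 members of 35, beside 4.11%, 6.36% and 7.71% of all genes, with limma-voom also 0 called in each. Smallest p in males had Ccl27a (log2 difference -0.80, adjusted p = 1), in females Ccl25 (0.61, adjusted p = 0.695) and for the difference between the sexes Cxcl10 (2.59, adjusted p = 0.602). The counts changed when the 5 libraries with most RNA of muscle, kidney or T cells were left out, which leaves 1 VDD HF male, 2308, assumed to vary like the mice of the other groups. Then Ccl6 passed in males and 6 members (Ackr4, Ccl6, Ccl8, Ccl9, Ccr1 and Ccr2) passed as lower for females minus males, beside 0.05% and 1.91% of all genes. Those values rest on 1 mouse, which was the highest of all 24 libraries for Ccl6, Ccl8, Ccl9, Ccr1 and Ccr2.

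Several lymphocyte-linked members had their highest level in the same mouse. Of the tested genes, these were highest in VDD HF female 2081: Ackr1, Ccl3, Ccl5, Ccl22, Ccr7, Cxcl9, Cxcl10, Cxcl16, Cxcr3, Cxcr6 and Xcr1. Ackr1 exceeded its next library narrowly (119.9 against 117.3 normalized reads), and the share of all genes highest in 2081 is not given here. Ccl5 had 1104 normalized reads there and 36.4 to 154 in the other 23 libraries, the chemokine receptor genes of T cells, Cxcr3 and Cxcr6, had 219 and 222 against at most 43.4 and 48.8, and Xcl1 had 43.8 against at most 9.0. The summed T lymphocyte and NK cell markers were also highest in that library, at 1176 and 658. For HF against LF in VDD females, the log2 fold change of Ccl5 was 1.29 with this mouse and 0.00 without it, that of Cxcr6 0.66 and -0.35, and that of Cxcr3 1.44 and 0.54. For Cx3cr1 the same values were 1.46 and 1.39, so that its difference was nearly as large without the mouse. Among the tested members highest in VDD HF male 2308 were Ackr3, Ccl6, Ccl7, Ccl8, Ccl9, Ccr1 and Ccr2, again without a share of all genes beside them. Without 2308 the HF rise of Ccl7 was 1.62 (adjusted p = 0.00192) on the log2 scale.

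**Figure D5:**
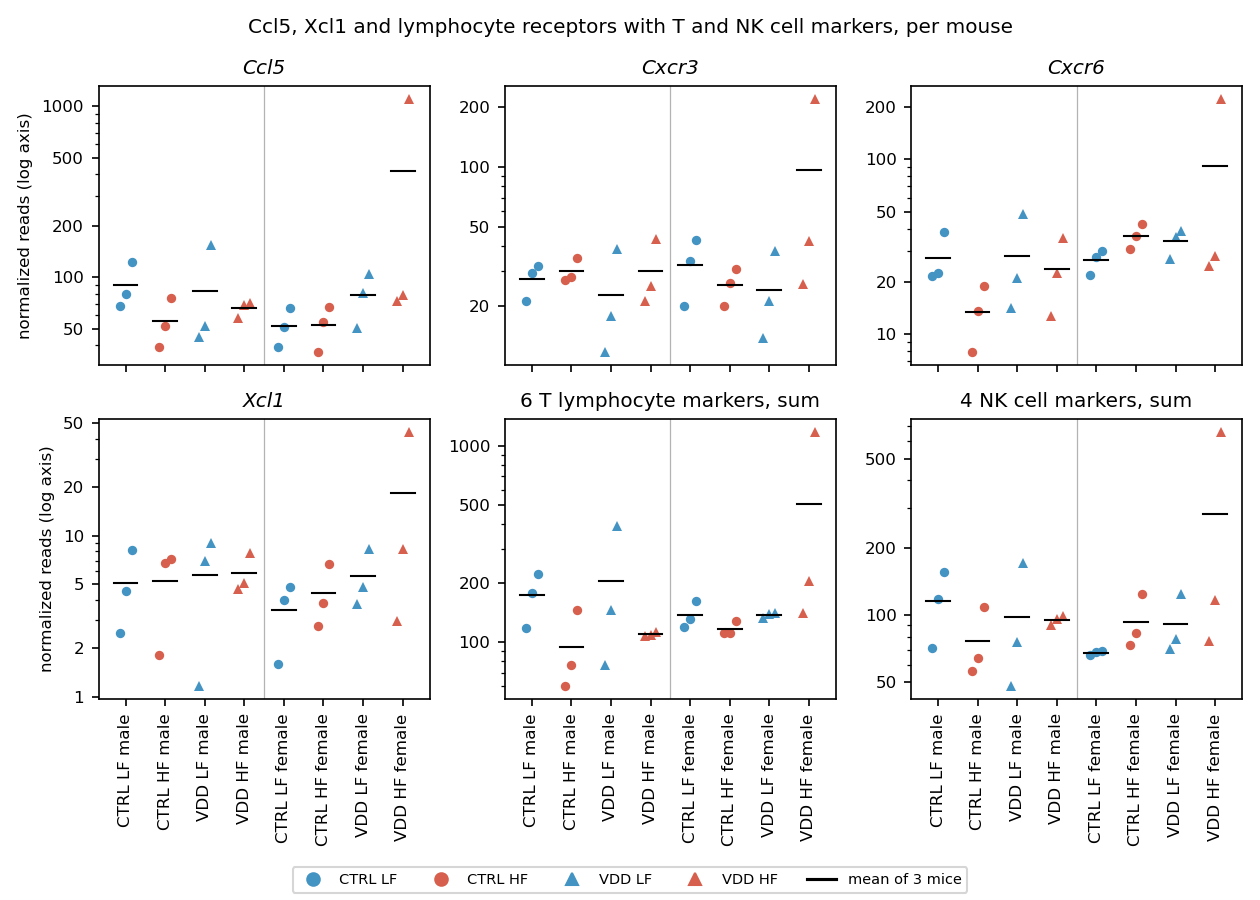
Normalized reads (log axis) of Ccl5, Cxcr3, Cxcr6 and Xcl1 and summed levels of 6 T lymphocyte and 4 NK cell markers, with 1 point per mouse, sorted within each of the 8 groups of 3, and a line at the group mean. VDD HF female 2081 is the top point of the last group in every panel, with 1104 reads of Ccl5 against at most 154 elsewhere.

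Many chemokine genes lie side by side in the mouse genome, and neighbours did not all pass together under HF. On chromosome 11, from Ccl2 at 82035571 to Ccl8 at 82116799, Ccl2, Ccl7 and Ccl11 rose while Ccl12 and Ccl8, next in the row, did not pass. A second row on chromosome 11 (Ccl5, Ccl9, Ccl6, Ccl3 and Ccl4, 83525778 to 83664683) held no gene that passed under HF, and Ccl4 had too few reads to test. On chromosome 8 Ccl22 and Cx3cl1 rose, and Ccl17 between 94810453 and 94812036 had 0.48 ± 0.45 and did not pass. On chromosome 9, Xcr1 and Ccr2 rose, and Cxcr6 and Ccr1, which lie on the 2 sides of Xcr1, did not pass. Differences between neighbours were not tested.

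Signalling genes downstream of the receptors were described from a list of 35 genes (G protein subunits, kinases, Rac activators, receptor regulators, the further ligands Pf4, Ppbp and Mif, and the Mif receptor Cd74). Under HF 20 of them rose, 1 fell and 14 did not pass, beside 15.0% of all genes as higher and 14.2% as lower, with a median log2 fold change of 0.41 beside 0.01 over all genes. The smallest p belonged to Ptk2b, a calcium-regulated kinase (0.49), Rgs2, which turns off G protein signals (-1.59), and Gnai2, the inhibitory G protein subunit of the receptors (0.41). Rgs2 had 362 to 4823 normalized reads in LF mice and 168 to 3409.5 in HF mice. Among the other genes that rose were Pik3cg and Pik3r5, the kinase complex they activate, and Dock2, Prex1, Rac2, Vav1 and Was of the leukocyte movement machinery. For maternal diet 1 of 35 passed, Rgs2 as higher in VDD, where 2.53% of all genes were higher. For sex 2 were higher (Mif and Rgs2) and 11 lower in females, with Ccrl2, Pf4, Dock2 and Pik3cg among the latter, beside 10.8% and 9.03% of all genes. The list was chosen with earlier results of these data known. No gene of the list passed in any of the 8 pairwise comparisons or the 3 interactions.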

How the data were processed

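RNA was read from TruSeq stranded mRNA libraries. The authors trimmed reads, aligned them to mm10 with STAR (2.7.0d), kept unique alignments, counted genes with featureCounts (1.6.1, strand setting not stated) and normalized with DESeq2, and deposited 8 tables of 6 libraries with log2 values of normalized reads + 1. Deposited columns with the authors' own fold changes and p-values were not used.

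Whole reads were recovered from 100% of values (tolerance 0.02). Of 56899 entries per table, 4 with 2 repeated names were left out. Pairs of groups were compared with limma (3.58.1, R 4.3.3) with a trend on the deposited log2 values, keeping genes that reached 10 normalized reads in 3 or more libraries. For the average and interaction effects, reads of all 24 libraries were rescaled by median-of-ratios and fitted together, with Benjamini-Hochberg adjustment over all genes tested. The scripts were tested on simulated data. Gene coordinates are from GENCODE M21.

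The members and gene lists were chosen with earlier results of these data known. Values, by library or as lowest, median and highest, were given for members called in any result, the 3 with the smallest p in each, and Ccl2, Ccl5, Ccr2, Cx3cl1, Cx3cr1, Cxcl12, Cxcr4, Cxcl14, Ackr1 and Ackr3. The other members were given by ranges and counts, and 1 member that entered the fits and counts is not reported here.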

Additional observations from a re-analysis of the deposited data

Results flagged for a closer look

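For 4 members the groups of one pair did not overlap in one direction, and those of another pair did not overlap in the opposite direction. The share of all genes with such a pattern is not given here, so the number is not read as a result. For 3 of the 4 the difference between the pairs was not tested. The HF minus LF log2 difference of Cxcr6 was -1.0 in CTRL males and 0.46 in CTRL females. That of Ccl27a was 0.90 in CTRL males and -0.25 in VDD females. The VDD minus CTRL log2 difference of Ccl25 was -0.28 in LF females and 0.33 in HF females, a difference that did not pass as the interaction in females (0.61, adjusted p = 0.695, limma). The female minus male log2 difference of Ccl5 was -0.77 in CTRL LF mice and 1.48 in VDD HF mice, the group that holds VDD HF female 2081. Groups of 3 mice are too small for a test of single outlying samples.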

How the results depend on the processing

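Over 88 values of named genes, 2196 of 2341 alternatives kept the direction and the side of the threshold, 32 passed it newly, 99 no longer passed and 14 changed sign. With adjusted p under 0.01 and a fold threshold, 7 members were called for HF, 0 for VDD and 7 for sex. With upper-quartile scaling or limma-voom, 2 were called for VDD. Leaving out 1 library gave 15 to 20 members for HF, 1 to 5 for VDD and 10 to 15 for sex, and 0 to 1 for HF against LF in VDD males. Without the 5 libraries named above, 1 member passed for the interaction in males and 6 for its difference between the sexes. With adjusted p under 0.05 and no fold threshold, 4 passed for HF against LF in CTRL females and 1 in VDD males.

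Signs changed for 3 genes, none of them called in that comparison. Over the fits without 1 library, the HF effect of Ccl5 ranged from -0.20 (without 2081) to 0.289 and its sex difference from -0.136 (without 2081) to 0.353, and without the 5 libraries the values were -0.34 and -0.16. The sex difference of Ackr1 ranged from -0.063 to 0.077 and that of Cxcl14 from -0.191 to 0.037, the latter being 0.038 with upper-quartile scaling. Apart from the left-out libraries, the cause was not tested. No paired analysis was possible because the file columns carry mouse numbers and not the replicate numbers of the labels. The 22 members under the filter of 10 reads were outside the main tests, and of the 17 with any read, 2 (Cxcl2 and Ccr4) passed for sex when that filter was dropped.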
